A study of Rattus norvegicus with 241 samples.

Results

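The 8 genes described here are TP63, SNAI1, SNAI2, TWIST1, TWIST2, ZEB1, ZEB2 and VIM, regulators of the basal mammary lineage and of the epithelial-to-mesenchymal transition (EMT) together with vimentin, the transition's classical marker. They were chosen by symbol, matched ignoring case and printed here in capitals, and make up 8 of the 21707 genes named in 241 tables of rat mammary gland expression: 202 bulk RNA-seq samples of sorted cells and 39 single-cell tables. All rats were female, of the inbred ACI strain (ACI/SegHsd) or the outbred SD strain (Hsd:Sprague Dawley), and received either vehicle or TGFBRi, the TGFβ receptor inhibitor LY2157299, at 75 mg/kg by oral gavage 2 times daily for 10 days, or for 21 days in the estradiol experiment. Dosing began at 35 days in young ACI rats, at 24 days in young SD rats, at 21 days in SD rats later given NMU, at 38 days in ACI rats later given estradiol pellets, and at 18 to 24 weeks in adult virgin or parous ACI rats. Bulk samples were CD24+CD29high (basal), CD24+CD29low (luminal) and CD45+ (leukocyte) sorts. Each group of young ACI rats at days 0, 7 and 14 after treatment had 3 rats, each young SD group 4 and each adult group 4, apart from the CD45+ sorts of virgin TGFBRi rats (3) and parous vehicle rats (2). The young SD, adult and single-cell samples were collected at day 0, when dosing ended. Of the 4 young SD TGFBRi rats with bulk samples the labels name 2 weak and 2 strong responders, by a criterion they do not give, and these were kept as 1 group. The NMU experiment, in which rats received the carcinogen N-nitroso-N-methylurea at 50 mg/kg, had 3 vehicle tumor-bearing, 3 TGFBRi tumor-bearing and 3 TGFBRi tumor-free rats, plus EPCAM+ and CD45+ sorts of 3 tumors per treatment, all collected 87 days after NMU. The estradiol (E2) experiment, with 37 mg pellets implanted at 60 days, held luminal and CD45+ sorts of 4 vehicle and 3 TGFBRi rats without E2, 4 vehicle tumor-bearing, 4 TGFBRi tumor-free and 2 TGFBRi tumor-bearing rats with E2, so E2 and tumors cannot be told apart among vehicle rats. Single-cell tables came from young glands: basal and luminal sorts of 3 vehicle and 3 TGFBRi ACI rats and of 3 vehicle and 6 TGFBRi SD rats, and whole glands of 3 vehicle and 6 TGFBRi SD rats.

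TP63 encodes p63, the transcription factor that maintains basal cells of stratified and glandular epithelia and drives their keratins and hemidesmosome genes. SNAI1 (Snail) and SNAI2 (Slug) are zinc-finger repressors that bind E-boxes in the promoters of epithelial genes such as CDH1, and SNAI2 is known as a basal cell factor of the mammary gland. TWIST1 and TWIST2 are basic helix-loop-helix factors of mesenchymal lineages, ZEB1 and ZEB2 are zinc-finger homeodomain repressors found in stroma, endothelium and leukocytes, and VIM encodes the intermediate filament protein vimentin. TGFβ signaling is a classical inducer of several of these factors in epithelial cells.

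The promoters of SNAI1, ZEB1 and TP63 are shown because factors of this family recognise the E-box, whose general form is CANNTG and whose form preferred by SNAI and ZEB proteins is CACCTG. RefSeq promoter windows of 300 bases on the GRCr8 assembly, reaching from 250 bases before the gene's start to 50 after it, were matched by symbol for 7 of the 8 genes, and SNAI2 was not among them. The lines give each window 5′ to 3′ on the gene's own strand, with every CANNTG in capitals. SNAI1 lies on the plus strand at chr3:176667226-176667525, ZEB1 on the minus strand at chr17:56810604-56810903 and TP63 on the minus strand at chr11:88554128-88554427.
SNAI1: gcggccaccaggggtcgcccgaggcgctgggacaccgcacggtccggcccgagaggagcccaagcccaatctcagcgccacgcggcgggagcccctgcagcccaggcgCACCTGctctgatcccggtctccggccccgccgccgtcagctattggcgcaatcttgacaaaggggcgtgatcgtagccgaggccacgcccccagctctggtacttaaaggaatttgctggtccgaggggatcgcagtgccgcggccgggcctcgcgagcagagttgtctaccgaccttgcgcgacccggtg
ZEB1: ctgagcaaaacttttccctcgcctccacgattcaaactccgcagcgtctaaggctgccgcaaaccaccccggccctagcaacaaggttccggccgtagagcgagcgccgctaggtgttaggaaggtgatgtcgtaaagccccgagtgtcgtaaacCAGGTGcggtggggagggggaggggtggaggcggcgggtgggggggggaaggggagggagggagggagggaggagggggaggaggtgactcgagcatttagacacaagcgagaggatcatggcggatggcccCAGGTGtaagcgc
TP63: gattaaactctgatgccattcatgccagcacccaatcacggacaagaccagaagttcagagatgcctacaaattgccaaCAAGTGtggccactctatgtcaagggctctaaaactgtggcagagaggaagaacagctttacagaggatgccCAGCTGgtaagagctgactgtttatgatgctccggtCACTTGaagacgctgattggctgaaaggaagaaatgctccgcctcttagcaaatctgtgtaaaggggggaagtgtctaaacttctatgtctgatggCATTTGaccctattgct
The SNAI1 window held 1 CACCTG. The ZEB1 window held 2 CAGGTG, which is CACCTG on the opposite strand. The TP63 window held 4 E-boxes, none of them CACCTG, and the windows of TWIST1, TWIST2 and VIM held no E-box at all. CACCTG on either strand thus stood in 2 of 7 windows, against 18.8% of 33469 RefSeq promoter windows, and CANNTG, which includes every CACCTG, in 4 of 7 against 72.1%. These are matches of letters in these windows only, the first listed for each gene, and other start sites of the genes were not looked at.

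Bulk values are normalized counts, scaled for library depth, and gene reads per library lay between 4194912 and 52314784. The single-cell tables held 16762 cells of ACI sorts, 39766 of SD sorts and 103524 of whole SD glands. Cells were grouped into classes called X-like after the fixed markers that define them, and neither clustering nor class names used any of the 8 genes. Cell barcodes found in more than 1 library of an experiment made up 0.165% to 0.692% of the cells of an ACI library, 0.547% to 1.72% in SD sorts and 11.4% to 12.8% in whole glands. No doublet caller was run. In 1 whole-gland vehicle rat, replicate 3, 70.9% of cells carried at least 3 UMIs of stromal markers, against 20.3% to 35.5% in the others. The adult virgin vehicle rat 1 also stood apart, with summed macrophage markers of 26180 normalized counts in its basal sort and VIM of 7101 in its luminal sort against 636 to 746 in the other 3. In young ACI rats day 7 vehicle replicate 3 has labels that disagree: for its basal and luminal sorts 1 label field says treated, and the other fields and its CD45+ sort say control. It was kept as vehicle, and results that change without it are given. Replicates were separate rats throughout.

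To describe the lineage pattern, basal and luminal sorts of vehicle rats were compared wherever both had been scaled together. TP63, SNAI2 and VIM were higher in basal cells in all 5 comparisons (young ACI at 3 times, young SD, NMU-treated SD), SNAI1, TWIST1, TWIST2 and ZEB1 in 4 of 5 and ZEB2 in 2 of 5. In all, 33 of 40 tests of the 8 genes called a gene higher in basal cells and none lower (limma on log2(normalized count + 1), adjusted p of at most 0.05 over all genes). The share of all tested genes called higher in basal cells was 12.4%, 8.22% and 10.8% in young ACI rats at days 0, 7 and 14, 26.9% in young SD rats and 10.7% in NMU-treated rats, and called in either direction 20.5%, 14.7%, 19.3%, 50.1% and 21.9%. In such sorted populations fewer cells of a type and less RNA per cell cannot be told apart.

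**Figure D1:**
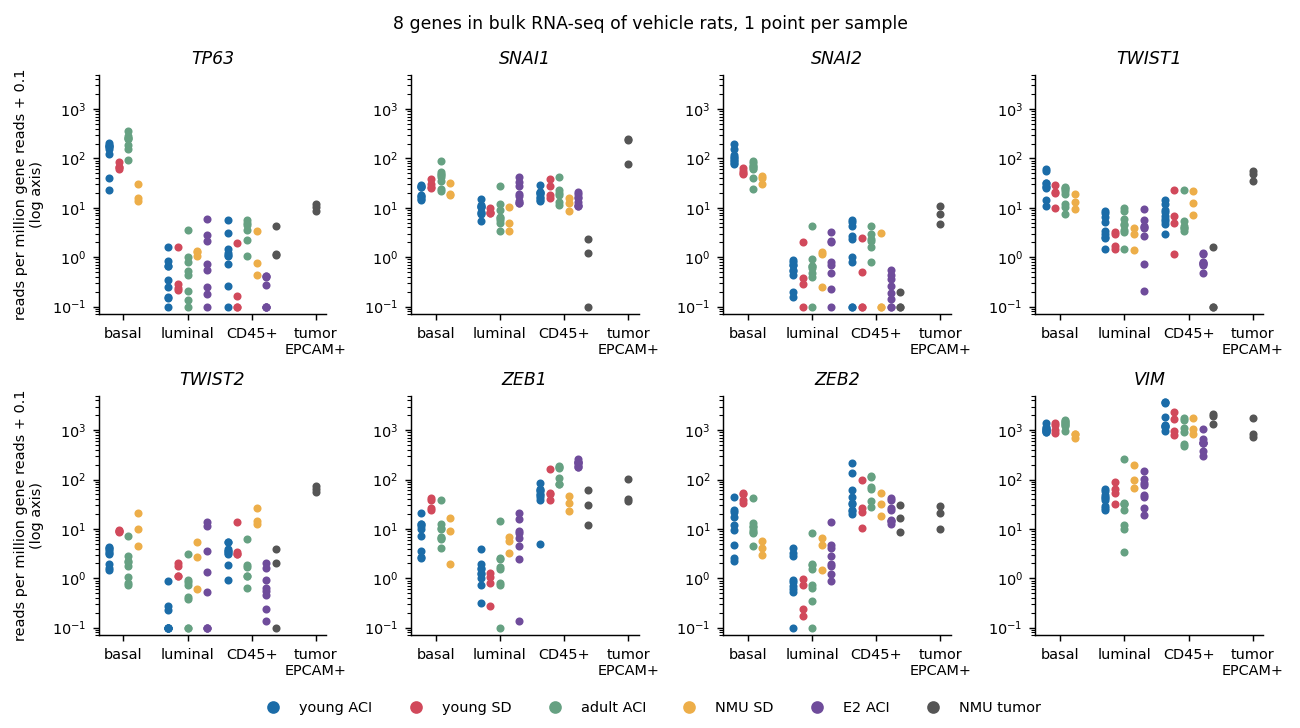
Levels of the 8 genes in vehicle samples of each bulk sort, as RPM (reads per 1000000 gene reads) plus 0.1 on a log axis, each point 1 sample, colored by experiment. TP63 and SNAI2 stand high in the basal sorts and near the floor in luminal and CD45+ sorts, while ZEB1 and ZEB2 are high in CD45+ samples and SNAI1, TWIST1 and TWIST2 in EPCAM+ tumor cells.

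TP63 separated the lineages in every experiment. In young ACI vehicle rats at day 0 its normalized counts were 2847, 2896 and 2397 in the basal sort, against 3.92, 0.729 and 0 in the luminal sort. The groups did not overlap, with a difference of 10.37 on the log2 scale (SE 0.99, adjusted p = 4.35e-09, limma). In young SD vehicle rats TP63 was at 746, 944, 644 and 762 in basal samples, against 2.28, 2.38, 2.78 and 20.9 in luminal samples, a log2 difference of 7.12 (SE 0.57, adjusted p = 3.83e-08, limma). In NMU-treated SD rats basal counts were 237, 221 and 467 and luminal counts 32.02, 38.8 and 17.3, again without overlap, and the log2 difference was 3.34 (SE 0.83, adjusted p = 0.00537, limma). Over all 51 basal samples of every treatment TP63 ranged from 10.2 to 380 RPM (reads per 1000000 gene reads) with a median of 116, and over 68 luminal samples from 0 to 11.3 with a median of 0.406, so the ranges of the sorts overlapped only at their ends.

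SNAI2 followed the same lineage order. Its normalized counts in young ACI vehicle rats at day 0 were 1233, 1429 and 1241 in the basal sort, against 10.97, 5.10 and 9.12 in the luminal sort, and the log2 difference was 7.17 (SE 0.68, adjusted p = 3.73e-09, limma). Basal counts in young SD rats were 535, 713, 552 and 625, against 38.8, 2.38, 5.55 and 0 in luminal cells (6.79 on the log2 scale, SE 0.76, adjusted p = 1.42e-06, limma). Every basal rat lay above every luminal rat in both strains. In NMU-treated rats basal counts of 461, 653 and 692 stood against luminal counts of 4.00, 34.5 and 21.6, a log2 difference of 5.22 (SE 1.01, adjusted p = 0.000678, limma).

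VIM, a general mesenchymal filament, was also a basal gene here. At day 0 in young ACI vehicle rats it reached 15270, 17715 and 19639 normalized counts in basal samples, against 603, 370 and 914 in luminal samples, with a log2 difference of 4.89 (SE 0.53, adjusted p = 4.02e-08, limma). Young SD basal cells held 15349, 11312, 9373 and 14376 and luminal cells 1772, 836, 622 and 734 (3.77 on the log2 scale, SE 0.32, adjusted p = 6.85e-08, limma). The groups were far apart in both strains and closer in NMU-treated rats, where basal counts of 10363, 13187 and 12995 faced luminal counts of 1865, 3094 and 3725 (2.12, SE 0.46, adjusted p = 0.00195, limma). The median of CD45+ samples was 1149 RPM against 1104 in basal samples.

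SNAI1 was called higher in basal cells in 4 of these 5 comparisons, with log2 differences of 1.05 to 1.33 over all 5, smaller than those of its paralog SNAI2 (5.22 to 8.65). Basal counts at day 0 in young ACI vehicle rats were 418, 434 and 399, and luminal counts 165, 227 and 181. The groups did not overlap, and the log2 difference was 1.13 (SE 0.27, adjusted p = 0.00275, limma). In young SD rats the log2 difference was 1.26 (SE 0.49, adjusted p = 0.0406, limma), and with the rat as a block the adjusted p was 0.0596. That SD call was also lost when any of basal rats 1, 2, 3 or 4 or luminal rats 2, 3 or 4 was left out, with log2 differences from 1.13 to 1.33 and adjusted p of 0.0569 to 0.101. EPCAM+ cells of NMU tumors held 71.6 to 246 RPM of SNAI1, against 10.0 to 134 in the basal and 1.48 to 41.3 in the luminal sorts of glands. Tumor cells and gland cells were scaled apart, so this order was not tested.

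TWIST1 and TWIST2 were both higher in basal than luminal cells of young rats. TWIST1 counts at day 0 in young ACI vehicle rats were 940, 388 and 782 in basal samples, against 120, 100.6 and 134 in luminal samples (2.48 on the log2 scale, SE 0.51, adjusted p = 0.000548, limma). TWIST2 was at 28.3, 59.5 and 42.7 in basal cells and at 0 in all 3 luminal samples. Neither gene's groups overlapped. In NMU-treated rats neither passed the test, with log2 differences of 1.74 (adjusted p = 0.103) for TWIST1 and 1.59 (adjusted p = 0.451) for TWIST2 (limma). At day 7 in young ACI rats the TWIST2 call (3.81, adjusted p = 0.0105, limma) was lost without luminal vehicle replicate 1 (2.76, adjusted p = 0.108). Tumor EPCAM+ cells were above most gland samples, with 35.1 to 184 RPM of TWIST1 and a median of 62.3 of TWIST2, against basal medians of 24.4 and 3.95.

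For ZEB1 and ZEB2 the calls differed between experiments. In young ACI vehicle rats at day 0 ZEB1 counts were 177, 192 and 296 in basal samples, against 18.02, 9.48 and 60.5 in luminal samples, and the log2 difference was 3.23 (SE 0.61, adjusted p = 0.000175, limma). ZEB2 counts were 335, 360 and 635 against 9.40, 0 and 6.63 (6.63 on the log2 scale, SE 0.81, adjusted p = 3.23e-07, limma). Neither gene overlapped between the lineages at that time. At day 7 and day 14 ZEB2 did not pass the test, with log2 differences of 1.92 (adjusted p = 0.125; 2.57 and 0.0469 without the basal sample of replicate 3, whose labels disagree, and 1.37 and 0.465 without its luminal sample) and 2.12 (adjusted p = 0.0685), while with the rat as a block it did (adjusted p = 0.0461 and 0.0235, limma). At day 14 the ZEB1 call (2.03, adjusted p = 0.016, limma) was lost without basal vehicle replicate 3 (1.55, adjusted p = 0.119), luminal replicate 2 (1.87, adjusted p = 0.0624) or luminal replicate 3 (1.95, adjusted p = 0.0567). In NMU-treated rats the lineages overlapped: ZEB1 counts were 137, 269 and 28.8 in the basal sort and 184, 177 and 57.04 in the luminal sort, and ZEB2 counts 61.7, 47 and 87.9 in the basal sort and 176, 151 and 25.1 in the luminal sort. The log2 differences there were -0.26 (SE 1.05, adjusted p = 0.892) and -0.46 (SE 1.19, adjusted p = 0.824, limma). Over all bulk samples the CD45+ medians were 78.5 RPM for ZEB1 and 32.9 for ZEB2, those of tumor EPCAM+ cells 53.9 and 25, and those of basal cells 11.3 for both genes. The order differed between experiments: in young SD vehicle rats the ZEB2 median was 45.4 in basal and 24.3 in CD45+ cells, and in NMU tumors of vehicle rats the ZEB1 median was 40.9 in EPCAM+ and 30.1 in CD45+ cells.

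**Figure D2:**
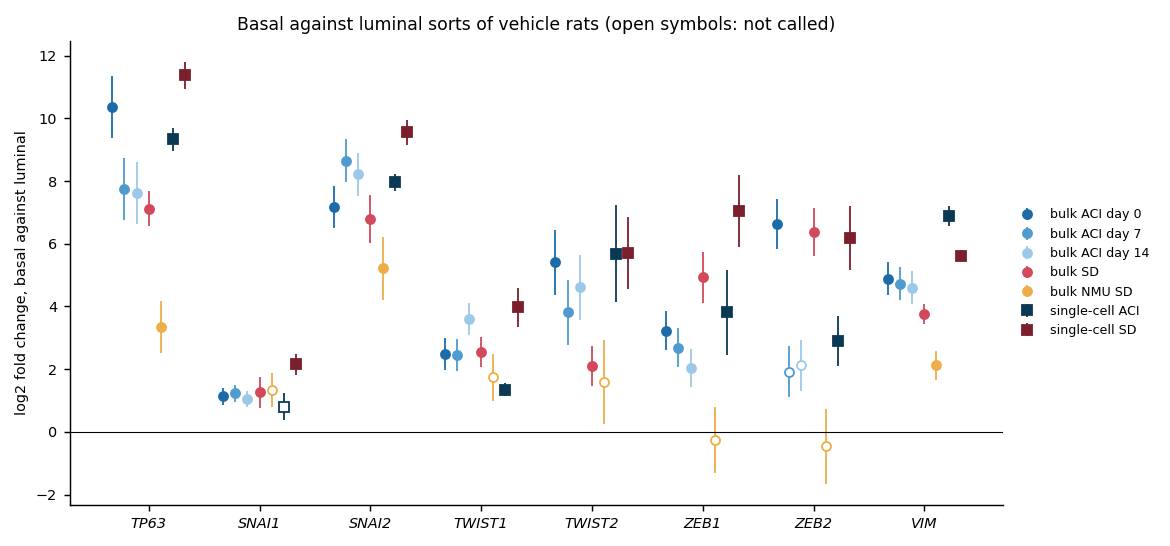
Difference between basal and luminal cells of vehicle rats for each gene, as log2 fold change with bars of 1 SE, circles for bulk comparisons and squares for summed single-cell sorts, open where not called. TP63 and SNAI2 lie farthest to the basal side in nearly every comparison, SNAI1 lies closest to 0 among the young rats, and ZEB1 and ZEB2 in NMU-treated rats lie at -0.26 and -0.46. TWIST2 at ACI day 0 is drawn against luminal samples at 0, so its position depends on the pseudocount.

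Lists of genes that p63 and the EMT factors are known to act with were compared between the lineages as well. Of the list of 17 p63-linked basal genes, 13 were tested in young ACI vehicle rats at day 0, and 9 were higher in basal cells and 0 lower, with a median log2 difference of 2.30 against 0.21 over all genes. KRT5 and KRT14, the basal keratins, differed by 8.07 (SE 0.62) and 7.72 (SE 0.52). Of 17 epithelial-state genes tested 12 were lower in basal cells and 0 higher (median -3.25), led by the tight junction genes CLDN4 (-5.61, SE 0.47), CLDN7 (-5.67, SE 0.48) and OCLN (-4.65, SE 0.40). Of 23 mesenchymal genes and other EMT factors 12 were higher in basal cells and 0 lower (median 2.37), among them TAGLN (7.60, SE 0.71), a smooth muscle gene that myoepithelial cells also express, MMP2 (4.24, SE 0.63), a matrix metalloproteinase, and SPARC (4.40, SE 0.71), a matrix protein. The same lists gave 11 and 0 of 13, 0 and 13 of 17, and 17 and 1 of 23 in young SD rats, and 11 and 0 of 13, 0 and 11 of 17, and 8 and 0 of 23 in NMU-treated rats, as counts higher and lower in basal cells. Over all genes the counts higher and lower were 1969 and 1272 of 15824 in ACI rats at day 0, 3600 and 3110 of 13400 in SD rats and 1549 and 1616 of 14473 in NMU-treated rats.

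Single-cell sorts gave the lineage comparison with unique molecular identifiers (UMIs) summed per rat. Of 16 tests 15 called the gene higher in the basal sort and none lower (edgeR quasi-likelihood, adjusted p of at most 0.1), where 33.6% of all genes in ACI and 27.7% in SD were called higher. Some calls rested on few UMIs, mostly of 1 rat. The ACI vehicle basal sorts held 19, 2 and 0 UMIs of ZEB1 and 18, 2 and 1 of TWIST2. TP63 stood at 129, 162 and 229 CPM (UMIs per 1000000 UMIs) in the 3 ACI vehicle basal sorts and at 0.452, 0.0917 and 0.141 in the luminal sorts, and the log2 difference was 9.33 (SE 0.37, adjusted p = 1.28e-07, edgeR). In SD rats TP63 stood at 99.6, 69.5 and 95.9 CPM in basal sorts, and the luminal sorts of the same rats held 1 TP63 UMI in all. SNAI2 had 2433, 1261 and 945 UMIs in the ACI basal sorts and 14, 3 and 2 in the luminal sorts, and was at 72.4, 55.8 and 47.7 CPM in SD basal sorts, against at most 0.103 in an SD luminal sort. The gene that did not pass was SNAI1 in ACI rats, with 2.39, 1.91 and 0.8 CPM in basal sorts and 0.848, 1.28 and 0.917 in luminal sorts, overlapping groups with a log2 difference of 0.81 (SE 0.42, adjusted p = 0.129, edgeR). That call was gained without basal replicate 3 (1.11, adjusted p = 0.0247). In SD rats SNAI1 did pass, at 8.80, 5.07 and 5.99 against 1.70, 1.54 and 1.11 (2.15, SE 0.33, adjusted p = 0.000631, edgeR).

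The single cells also showed which cells of the basal sort carried each transcript, among cells left by the authors' filters. Those filters removed sorted cells with a PTPRC read or too few keratin reads and, per the methods, cells in clusters made up almost wholly of the other sort, so the shares below are not the makeup of the sort as collected. In the ACI basal sort of all rats 99.6% of cells were basal-like, and these held 99.7% of the TP63 UMIs, 99.7% of SNAI2, 97% of TWIST1, 94.4% of SNAI1 and 98.1% of VIM. They held only 8 of the ZEB1 UMIs (17.4%) and 28 of the ZEB2 UMIs (23.3%), while a cluster of 44 cells, left unnamed because fibroblast and vascular endothelium markers both marked it, held 38 ZEB1 and 92 ZEB2 UMIs. In the SD basal sort 93% of cells were basal-like and held 98.7% of the TP63 UMIs and 98.6% of SNAI2, but 85.2% of VIM, 69.2% of TWIST1 and 65.1% of SNAI1. Smooth muscle-like cells held 22.5% of the SNAI1 UMIs there and fibroblast-like cells 17.9% of TWIST1. Without cells of at least 3 stromal-marker UMIs the SD log2 difference between the sorts was 1.89 for SNAI1 (adjusted p = 0.00108) and 3.55 for TWIST1 (adjusted p = 0.000418, edgeR). The SD basal-like cells held 5115 TP63 UMIs but 17 of ZEB1 and 45 of ZEB2. There the 564 smooth muscle-like cells held 334 ZEB1 and 477 ZEB2 UMIs, the 144 fibroblast-like cells 100 and 241, and the 91 vascular endothelium-like cells 95 and 48. TWIST2 in that sort was also mainly fibroblast-like, with 92 UMIs against 46 in the 14866 basal-like cells. All these cells had passed the authors' keratin filter. The paper reports in both sorts a rare population it terms secretory basal cells, and takes their epithelial identity from EPCAM staining. Whether the unnamed, smooth muscle-like, fibroblast-like and vascular endothelium-like cells here are those cells was not tested. Leaving out every cell with at least 3 stromal-marker UMIs, which were 12.8% to 35.1% of vehicle cells in that ACI sort, took the ACI log2 difference of ZEB2 between the sorts from 2.89 (SE 0.80, adjusted p = 0.0127) to 0.11 (adjusted p = 0.928, edgeR). The latter rested on 1, 4 and 0 ZEB2 UMIs in the vehicle basal sorts and 2, 1 and 4 in the luminal sorts. Most of the basal sort cells left out were basal-like by class.

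**Figure D3:**
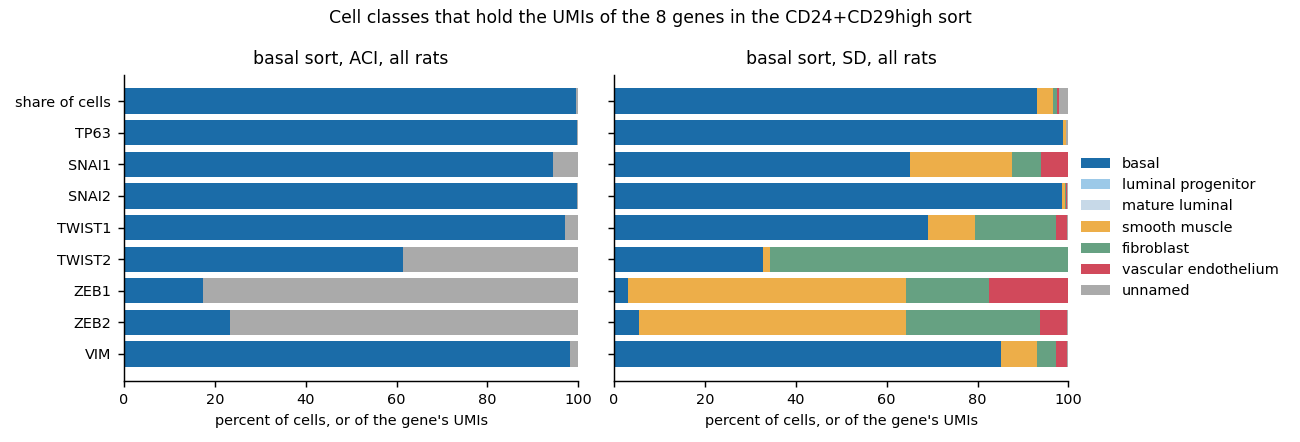
Percent of all cells, and of the UMIs of each of the 8 genes, that each cell class holds in the CD24+CD29high sort of ACI and SD rats, all rats summed. Basal-like cells are 99.6% of ACI and 93% of SD cells and fill the TP63, SNAI2 and VIM bars of ACI rats, whereas most ZEB1 and ZEB2 UMIs lie outside them.

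Whole glands of the 3 vehicle SD rats placed the 8 genes among 16 cell classes. These levels are CPM within the class and are given as a description, since the classes come from the same cells. TP63 and SNAI2 were basal-like genes: TP63 was at 15.6, 24.6 and 34.5 in basal-like cells, and the next class, neutrophil-like, had a median of 1.40 and a highest value of 3.07. SNAI2 was at 129, 143 and 146 in basal-like cells, against 3.3, 9.11 and 10.7 in pericyte-like and 3.50, 5.09 and 5.27 in fibroblast-like cells, which overlapped each other and lay far under the basal-like values.

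SNAI1 was led by stromal and endothelial classes. Smooth muscle-like cells had 20.6, 89.9 and 100.4 CPM, vascular endothelium-like cells 54.5, 76.1 and 174, pericyte-like cells 35.3, 51.3 and 76.2, lymphatic endothelium-like cells 29.6, 40.3 and 47.3, and fibroblast-like cells 21.5, 27.0 and 35.2. Each of these overlapped its neighbor in the order, and all lay above Schwann-like cells (1.53, 9.30 and 14.1) and above the basal-like median of 3.18. TWIST1 was at 169, 173 and 224 in pericyte-like, 102.8, 168 and 358 in smooth muscle-like and 118, 118.7 and 180 in fibroblast-like cells, which overlapped, while Schwann-like cells were at 7.03, 12.3 and 16.3 and basal-like cells at 4.68, 10.9 and 25.3. Among classes with all 3 rats TWIST2 was highest in fibroblast-like cells (39.6, 77.1 and 107.4) and next in pericyte-like cells (14.7, 26.8 and 28.4), without overlap, and basal-like cells had at most 1.19. Adipocyte-like cells of the only rat with at least 10 of them were at 90.1 for SNAI1, 360 for TWIST1 and 80.1 for TWIST2.

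The ZEB genes split by class. ZEB1 led in lymphatic endothelium-like cells (71.4, 120 and 129 CPM), T or NK-like cells (21.3, 89.7 and 103.9), vascular endothelium-like cells (39.3, 82.3 and 84.7) and B-like cells (15.4, 81.4 and 87.6), all overlapping. ZEB2 led in neutrophil-like cells (430, 580 and 588), with no overlap with macrophage-like cells (208, 290 and 414), which in turn overlapped smooth muscle-like cells (160, 165 and 236). Basal-like cells were low in both, at 0.298, 2.12 and 4.90 for ZEB1 and 1.25, 2.08 and 2.09 for ZEB2. VIM was highest in Schwann-like cells (13148, 14079 and 15637), without overlap with lymphatic endothelium-like cells (4922, 6642 and 8914), and fibroblast-like cells had 3449, 4805 and 4941. The basal-like median of 788 was near those of B-like (714) and T or NK-like cells (675), and the luminal classes were lowest at 60.4 in mature luminal-like and 39.7 in luminal progenitor-like cells.

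**Figure D4:**
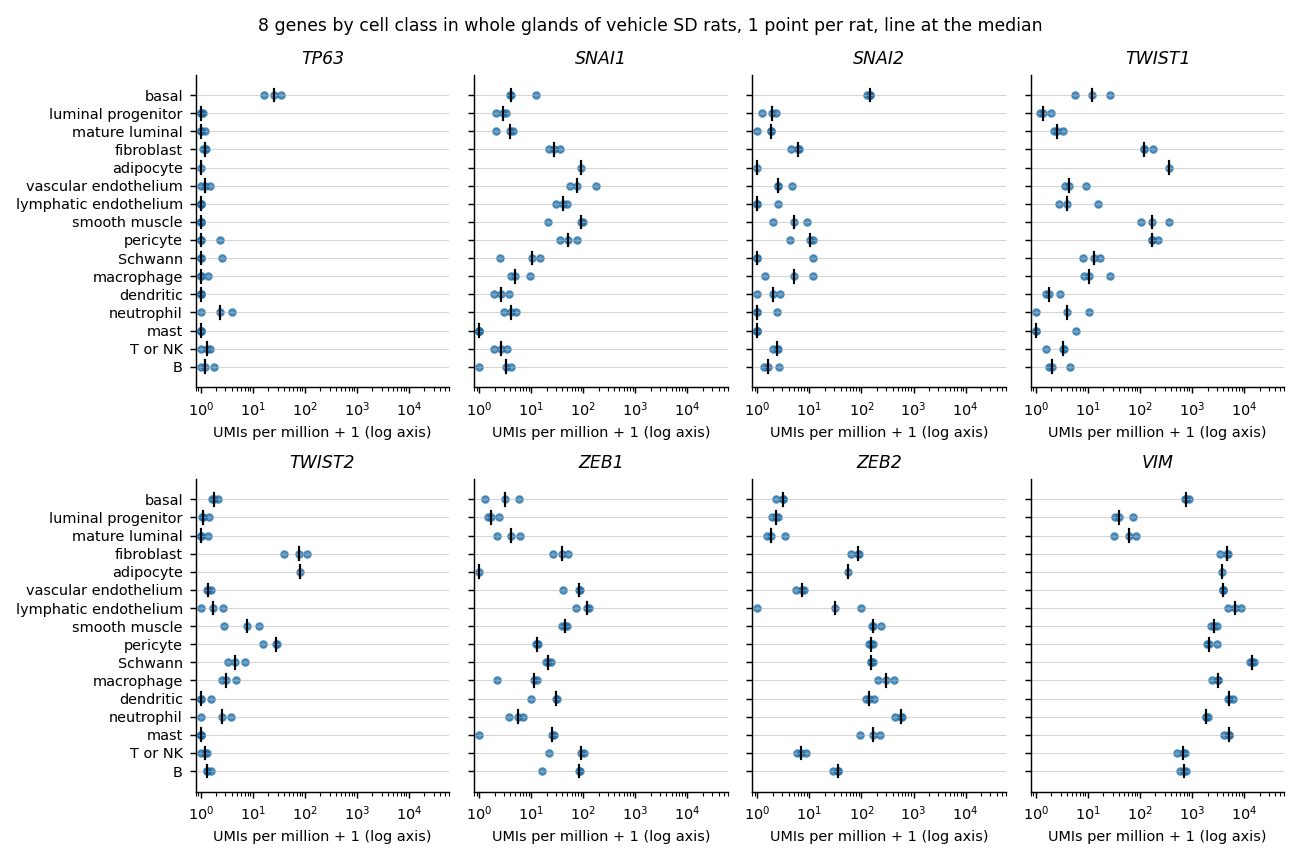
Levels of the 8 genes in 16 cell classes of whole glands, as CPM plus 1 on a log axis, 1 point for each of 3 vehicle SD rats and a line at the median. TP63 and SNAI2 peak in basal-like cells, the TWIST genes and SNAI1 in stromal classes, ZEB1 in endothelium-like and lymphocyte-like classes, ZEB2 in neutrophil-like cells and VIM in Schwann-like cells.

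Genes with the most similar pattern were ranked by Pearson r of log2(CPM + 10) over the 16 classes, among 6221 genes, as a description whose points share libraries. The nearest genes to TP63 were GNG13 (r = 0.993), LOC102553785 (0.992) and KRT5 (0.985), and those to SNAI2 were NIPAL4 (0.978), LOC102553785 (0.977) and COL17A1 (0.972), a hemidesmosome collagen. KRT5 and COL17A1 are among the fixed markers that named the basal-like class, so their places in the ranking are not independent of it. TP63 and SNAI2 were also close to each other (0.958). SNAI1 was nearest to FZD4 (0.959), FABP4 (0.909) and PXDN (0.907), TWIST1 to AOC3 (0.982), LOXL2 (0.962) and UGP2 (0.92), and TWIST2 to NNMT (0.955), CLEC3B (0.947) and FMO1 (0.932). Of these, FZD4, FABP4, PXDN, AOC3, NNMT and FMO1 were highest in adipocyte-like cells. That class is 1 cluster of 33 cells, 69.7% of them from 1 library, and the ranking was not repeated without it. TWIST1 and TWIST2 had an r of 0.875 with each other. For ZEB1 the nearest were GRAMD1A (0.83), S1PR1 (0.82) and PCMTD1 (0.815), for ZEB2 RNASEK (0.823), GTF2B (0.801) and CARD19 (0.799), and for VIM GLUD1 (0.872), YBX1 (0.866) and H2AFX (0.812). ZEB1 and ZEB2, despite being paralogs, had an r of -0.037.

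The effect of TGFBRi on the 8 genes was then tested in 32 bulk comparisons. Of 256 tests 4 passed, 3 of them higher and 1 lower with TGFBRi (limma), while 38 had an unadjusted p under 0.05. The number of all genes at such a p ran from 141 of 13618 in parous CD45+ cells upward. It was highest, at 4023 of 15643, in young ACI basal cells at day 0. Over all genes 2626 of 446580 tests passed in these comparisons (0.588%). On the recovered whole reads edgeR called 2 and DESeq2 called 11, and the share of all genes called by either method is not given. The passing results were SNAI2 and TWIST1 in basal cells of adult virgin ACI rats, ZEB2 in luminal cells and TWIST2 in CD45+ cells of young ACI rats at day 0. Differences of the TGFBRi effect between basal and luminal cells or between days passed in 0 of 64 tests by limma. Of these tests 13 had an unadjusted p under 0.05, and DESeq2 called 2. The number of all genes at such a p ran from 242 of 13400 (SD basal and luminal cells) upward. It was highest, at 2347 of 14761, for CD45+ cells of days 0 and 14. The share of all genes called for these differences was 0.152% between ACI basal and luminal cells, 0.0135% and 0.19% between CD45+ cells of days 0 and 7 or 14, and at most 0.00659% elsewhere.

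In basal cells of adult virgin ACI rats SNAI2 rose with TGFBRi, from 653, 1826, 1468 and 1570 normalized counts in vehicle to 3261, 2516, 3015 and 4406 in TGFBRi rats. Every treated rat lay above every vehicle rat, with a log2 difference of 1.33 (SE 0.33, adjusted p = 0.021, limma), in a comparison where 8.73% of all genes were called. Without the vehicle rat that stood apart (replicate 1) it was 1.00 (adjusted p = 0.0504), and fitted on these 2 groups alone 1.33 (adjusted p = 0.0803). TWIST1 rose from 577, 169, 284 and 228 to 563, 492.6, 777 and 1089, groups that overlapped through vehicle rat 1 (1.3, SE 0.34, adjusted p = 0.0278). Without that rat it was 1.64 (adjusted p = 0.0066), and the call was lost without vehicle replicate 2 (1.06, adjusted p = 0.0842), 3 (1.3, 0.0678) or 4 (1.2, 0.0756), without TGFBRi replicate 3 (1.25, 0.0596) or 4 (1.08, 0.0634), or with these 2 groups alone (1.3, 0.144). TP63 was at 2553, 4211, 6274 and 5858 in vehicle and 2872, 2480, 1431 and 2502 in TGFBRi rats and did not pass (-0.99, adjusted p = 0.0919, limma), while it did without vehicle rat 1 (-1.26, adjusted p = 0.0434) and by DESeq2 (adjusted p = 0.0349). SNAI1 passed only without that rat (1.3, SE 0.32, adjusted p = 0.0281).

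In the same comparison of adult virgin rats 837 of 13442 genes were called lower and 336 higher. Of 16 p63-linked basal genes 6 fell and 0 rose (median log2 difference -0.70, against -0.25 over all genes), led by the integrin ITGB4 (-1.69, SE 0.29, adjusted p = 0.00317) and TRIM29 (-1.26, SE 0.24, adjusted p = 0.0048). Of 17 epithelial-state genes 6 fell and 0 rose, among them CDH1, which encodes E-cadherin (-1.39, SE 0.28, adjusted p = 0.00697), and of 24 mesenchymal genes and other EMT factors 8 fell and 0 rose, among them the matrix metalloproteinase MMP14 (-1.06, SE 0.20, adjusted p = 0.00531, limma for all). In parous rats, where 0.00744% of genes were called, none of the 8 genes passed: SNAI2 was at 1931, 935, 1546 and 1728 in vehicle and 1637, 1545, 3106 and 2717 in TGFBRi basal cells, and TP63 at 7793, 5966, 3821 and 7067 against 3905, 2952, 8011 and 7474. Both overlapped. SNAI1 in parous basal cells was at 1000, 1013, 1162 and 1283 in vehicle and 3090, 2568, 2343 and 1354 in TGFBRi rats, TWIST1 at 420, 581, 618 and 641 against 1290, 1078, 1115 and 710, and ZEB2 at 182.1, 305, 108.9 and 276 against 981, 1010, 521 and 371. These 3 genes did not overlap between the groups and did not pass, and the share of all genes without overlap was not counted. An unadjusted p under 0.05 was reached by 678 of 13442 genes (limma).

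In young ACI rats at day 0 none of the 8 genes passed in basal cells, where 3.34% of all genes did. TP63 was at 1996, 1986 and 1163 with TGFBRi, under all 3 vehicle values given above, with a log2 difference of -0.70 (adjusted p = 0.527, limma). ZEB1 was at 648, 591 and 1137 with TGFBRi, ZEB2 at 1355, 1315 and 2319 and VIM at 28072, 45664 and 46252, in each case above all vehicle rats. Their log2 differences were 1.81 (SE 0.54, adjusted p = 0.0724), 1.91 (SE 0.60, adjusted p = 0.0783) and 1.16 (SE 0.34, adjusted p = 0.0661) by limma, and DESeq2 called all 3 (adjusted p = 0.0166, 0.0174 and 0.0245). The median over all genes was 0.30, and 4023 of 15643 genes had an unadjusted p under 0.05 (limma). The share of all genes without overlap between these groups was not counted, and the share called by DESeq2 is not given. Beside these values, the summed basal markers were 154373 to 224430 in vehicle and 44306 to 96480 in TGFBRi samples, Schwann markers 7149 to 12827 and 22856 to 35613, macrophage markers 134 to 237 and 578 to 1306, and the leukocyte gene PTPRC 0.815 to 111 and 208 to 318. Their part in the ZEB and VIM values was not tested. Of 13 p63-linked genes KRT5 (-1.44, SE 0.31, adjusted p = 0.0245), TRIM29 (-1.59, SE 0.41, adjusted p = 0.0484) and KRT15 (-2.09, SE 0.55, adjusted p = 0.049) fell and 0 rose, and none of the other lists' genes passed.

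Luminal and CD45+ cells of the same rats each gave 1 call. ZEB2 in luminal cells was at 9.40, 0 and 6.63 in vehicle and 122, 162 and 95.9 in TGFBRi rats, 4.86 higher on the log2 scale (SE 0.94, adjusted p = 0.0366, limma), where 1.01% of genes were called. That call was lost without vehicle replicate 2 (3.81, adjusted p = 0.151) or 3 (5.28, 0.143), without TGFBRi replicate 1 (4.87, 0.103) or 2 (4.67, 0.129), and by edgeR (4.48, 0.138). PTPRC moved with it, from 0 to 25.1 in vehicle to 31.4 to 103.6 in TGFBRi samples, as did macrophage markers (120 to 143, then 230 to 317) and T or NK markers (3.65 to 41.5, then 43.3 to 81.9), and their part was not tested. TWIST2 in CD45+ cells fell from 121, 92.3 and 79.1 to 13.1, 11.04 and 15.4 (-2.79 on the log2 scale, SE 0.67, adjusted p = 0.0378, limma), where 2.85% of genes were called. It was lost without vehicle replicate 1 (-2.62, adjusted p = 0.0576) or 2 (-2.81, 0.108), without TGFBRi replicate 1 (-2.79, 0.0866), 2 (-2.68, 0.102) or 3 (-2.90, 0.1), and by edgeR (-2.80, 0.0622). In these sorts summed fibroblast markers were 369088 to 741401 in vehicle and 23913 to 150470 in TGFBRi samples, pericyte markers 1408 to 2019 and 299 to 316, and basal markers 3419 to 12710 and 101.5 to 241, and TP63 itself was at 23.4, 18.7 and 22.8 and then at 0 in all 3. Their part was not tested. None of the 8 genes passed at days 7 or 14, when 0.00639% of all genes were called in basal cells at day 7 and 0% in the other comparisons of these days. In adult ACI rats 0.022% of all genes were called in virgin CD45+ cells and 0.0281% in parous luminal cells, and none of the 8 genes was.

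In young SD rats, NMU-treated rats, NMU tumors and the E2 experiment no bulk test of the 8 genes passed. The share of all genes called was 1.31% in basal, 0.212% in luminal and 0.015% in CD45+ cells of NMU-treated tumor-bearing rats and 0.948% in luminal cells of tumor-free ones, and in the E2 experiment it was 0.0147% in luminal cells without E2, 0.0147% and 0.00736% in luminal cells of E2 tumor-free and tumor-bearing rats, and 0.0223% in CD45+ cells of the latter. SD basal cells held TP63 at 1035, 540, 402 and 486 with TGFBRi, overlapping the vehicle values, and SNAI2 at 627, 972, 683 and 754, also overlapping, in a comparison with 0% of genes called. In NMU-treated basal cells TP63 ranged from 221 to 467 in vehicle, 278 to 375 in TGFBRi tumor-bearing and 170 to 295 in TGFBRi tumor-free rats, and SNAI2 from 461 to 692, 597 to 673 and 340 to 577. Both TGFBRi groups overlapped the vehicle group for both genes. EPCAM+ tumor cells of vehicle rats held SNAI1 at 4385, 4081 and 928 against 1183, 3236 and 2097 with TGFBRi, TWIST1 at 902, 916 and 429 against 962, 1301 and 3347, and VIM at 13835, 29884 and 10223 against 58868, 25359 and 24466. TWIST1 did not overlap between the groups, nor did ZEB2 (191, 340 and 351 against 461, 843 and 403), and 0% of genes were called. For these tumors too the share of all genes without overlap was not counted, and 278 of 12951 genes had an unadjusted p under 0.05 (limma). TP63 in the tumors was at 192, 138 and 142 in vehicle and 38.5, 109 and 567 with TGFBRi.

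E2 and parity gave 0 of 32 calls (limma), with 7 at an unadjusted p under 0.05 and none by DESeq2. For E2 1.48% of luminal and 0.282% of CD45+ genes were called, and for parity 0% of basal and luminal genes. Over all genes 1972 of 13590 luminal and 1626 of 13483 CD45+ genes had an unadjusted p under 0.05 for E2. For parity 408 of 13442 basal and 1361 of 14243 luminal genes did. In luminal cells of vehicle rats TP63 was at 1.82 to 17.3 without E2 and 0 to 155 with E2, TWIST1 at 62.3 to 214 and 2.67 to 111, and VIM at 715 to 2046 and 493.2 to 3963, all overlapping. Luminal TP63 of TGFBRi tumor-free rats with E2 ranged from 100.5 to 280.

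In the single cells the TGFBRi effect was tested on UMIs summed per rat within each class, in 22 comparisons. Of 131 tests of the 8 genes 24 passed, 14 higher and 10 lower with TGFBRi (edgeR quasi-likelihood, adjusted p of at most 0.1), and by sort, without classes, 5 of 29 passed, 2 higher and 3 lower. By sort 32.9% and 25.3% of all genes were called in basal and luminal sorts of ACI rats and 24.7% and 31.9% in those of SD rats. Over the 22 comparisons by class the share of all genes called ran from 0.884% (smooth muscle-like cells of SD sorts) to 43.3%. In the luminal classes it lay between 21.4% and 31.1%, and no pooled share was computed. Whether the 8 genes were called more often than other genes was not tested. The calls below therefore stand beside the share of their own comparison. It was 34.2% in basal-like cells of ACI sorts, 29.7% in those of SD sorts and 43.3% in those of whole glands. Scaling by library totals in place of TMM shifted the median of all genes by -0.23, -0.41 and 0.00 in these 3 comparisons, and changes are given relative to TMM.

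TP63 moved in opposite directions in the sorted and the whole-gland experiments. In ACI basal-like cells it fell with TGFBRi, from 130, 163 and 229 CPM to 86.3, 105.9 and 92.8, without overlap (-0.64 on the log2 scale, SE 0.17, adjusted p = 0.0153, edgeR). In SD basal-like cells of the sort it fell from 103.1, 77.4 and 96.8 to 22.6 at the lowest, 35.7 at the median and 53.8 at the highest of 6 TGFBRi rats, also without overlap (-0.96, SE 0.25, adjusted p = 0.0235). That call was lost without vehicle replicate 1 (-0.87, adjusted p = 0.113) or 3 (-0.92, adjusted p = 0.129). In basal-like cells of whole SD glands it rose, from 15.6, 24.6 and 34.5 to 41.4, 47.8 and 60.8 as lowest, median and highest of 6 rats (1.01, SE 0.20, adjusted p = 0.00278), and without vehicle replicate 3, the rat that stood apart, it rose by 1.25 (adjusted p = 0.00135). Every treated whole gland lay above every vehicle one.

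The whole-gland and sorted SD effects on TP63 differed by 1.96 on the log2 scale (SE 0.33, adjusted p = 0.000316, edgeR with both experiments in 1 model, chosen after the values were seen), where 37.5% of all genes were called. The difference was called in 20 of 20 other settings, from 1.76 to 2.34. For the other 7 genes it did not pass. ZEB2, on few UMIs, was at -1.88 (SE 1.08, adjusted p = 0.199) and was called in 2 of 20 other settings, from -5.59 to -1.20. VIM was at 0.29 (SE 0.29, adjusted p = 0.488) and was called in 1 of 20. SNAI1, SNAI2, TWIST1, TWIST2 and ZEB1 lay between -0.96 and 0.23 and were called in none of these settings. The sorted cells were read from the 3′ end and the whole glands from the 5′ end of transcripts, so kit, sort and experiment cannot be told apart in this difference.

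The basal-like cells of vehicle and TGFBRi rats lay largely in different clusters. In ACI sorts 46.5%, 33.5% and 17.3% of vehicle basal-like cells lay in clusters 0, 2 and 8, with TP63 at 221, 123 and 144 CPM, and 41.1%, 35.1% and 17.4% of TGFBRi cells in clusters 3, 4 and 10, with TP63 at 98.8, 95.5 and 75.9. In SD sorts 79.5% and 15.5% of vehicle cells lay in clusters 6 and 17 (TP63 at 78.6 and 245), and 29.5%, 28.1%, 24.6% and 11.5% of TGFBRi cells in clusters 2, 3, 5 and 10 (22.6, 42.5, 30.6 and 34.4). In whole glands 64.9% of vehicle cells lay in cluster 12 with TP63 at 18.9, and 80.7% of TGFBRi cells in cluster 5 with TP63 at 52.1. Within single clusters of whole glands TP63 was at 56.98 in the 400 vehicle cells and 52.1 in the TGFBRi cells of cluster 5, but at 18.9 and 64.1 in cluster 12, where only 52 TGFBRi cells lay. It was at 28.4 and 42.4 in cluster 28, at 24.1 and 52.4 in cluster 29, at 8.60 and 17.4 in cluster 31, at 24.4 and 30.1 in cluster 32 and at 21.4 and 29.8 in cluster 43. TGFBRi cells were higher in 6 of these 7 clusters. In the sorts, where TP63 was called lower, the levels within single clusters went both ways: TGFBRi cells were lower in 4 of 7 clusters in ACI rats and in 5 of 7 in SD rats. In ACI cluster 0 TP63 was at 221 CPM in 2545 vehicle and 183 in 90 TGFBRi cells, and in cluster 8 at 143.5 in 947 vehicle and 169.7 in 45 TGFBRi cells. In SD cluster 6 it was at 78.6 in 2518 vehicle and 95 in 79 TGFBRi cells, and in cluster 17 at 245 in 490 vehicle and 60.9 in 35 TGFBRi cells. Every one of these clusters of the sorts held at most 119 cells of 1 of the treatments, and none of these levels was tested. In SD clusters 2, 5 and 10 the vehicle levels rested on 1, 1 and 4 TP63 UMIs in 5, 12 and 5 cells. Of the cells of SD cluster 2, 98.6% came from 1 library. The labels give no library batch, so batch and treatment cannot be told apart here.

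Other genes of basal-like cells were called as well. SNAI1 rose in ACI basal-like cells from 2.08, 1.91 and 0.8 to 3.15, 4.22 and 4.13 CPM, on 72 and 130 UMIs (1.38 on the log2 scale, SE 0.31, adjusted p = 0.00696, edgeR). SNAI2 there fell from a mean of 113.6 ± 6.28 (SD, n = 3) to 75.1, 90.7 and 68.2 (-0.32, SE 0.10, adjusted p = 0.0434), a call lost without TGFBRi replicate 1 (-0.27, adjusted p = 0.151) or 3 (-0.25, 0.138) or vehicle replicate 2 (-0.27, 0.136). The groups overlapped for neither gene. Within single ACI clusters SNAI2 was higher in TGFBRi than in vehicle cells in all but cluster 11. Vehicle and TGFBRi levels were 109.6 and 145 in cluster 0, 118.9 and 160.5 in cluster 2 and 117.8 and 131.4 in cluster 8. They were 55 and 64.59 in cluster 3, 63.35 and 81.68 in cluster 4, 26.9 and 73.41 in cluster 10, and 82.65 and 69.66 in cluster 11. Each cluster held few cells of 1 treatment, and none of these levels was tested. TWIST1 in ACI basal-like cells was called higher (0.50, SE 0.15, adjusted p = 0.0281) with overlapping levels of 20.5 to 31.5 in vehicle and 26.4 to 34.2 in TGFBRi rats, and was not called when scaled by library totals (0.28, adjusted p = 0.19). In SD sorts SNAI2 ranged from 48.02 to 74.7 in vehicle and 46.9 to 97.3 in TGFBRi basal-like cells and did not pass (0.47, adjusted p = 0.258), nor did VIM (0.52, adjusted p = 0.114). VIM was called there without TGFBRi replicate 3 (0.61, adjusted p = 0.0807), and in ACI rats without vehicle replicate 2 (0.57, adjusted p = 0.0304 against 0.217 with all rats).

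In basal-like cells of whole glands VIM rose from 738, 788 and 879 to 1104, 1356 and 1829 CPM as lowest, median and highest of 6 TGFBRi rats (0.81, SE 0.18, adjusted p = 0.00515, edgeR), and without vehicle replicate 3 by 0.85 (adjusted p = 0.0153). SNAI2 rose from 129, 143 and 146 to 154, 178 and 198 (0.36, SE 0.12, adjusted p = 0.0404), a call lost without vehicle replicate 2 (0.37, adjusted p = 0.104) or 3 (0.28, adjusted p = 0.14). Without vehicle replicate 3 SNAI1 (1.04, adjusted p = 0.0777) and TWIST1 (0.96, adjusted p = 0.0791) were called higher as well.

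**Figure D5:**
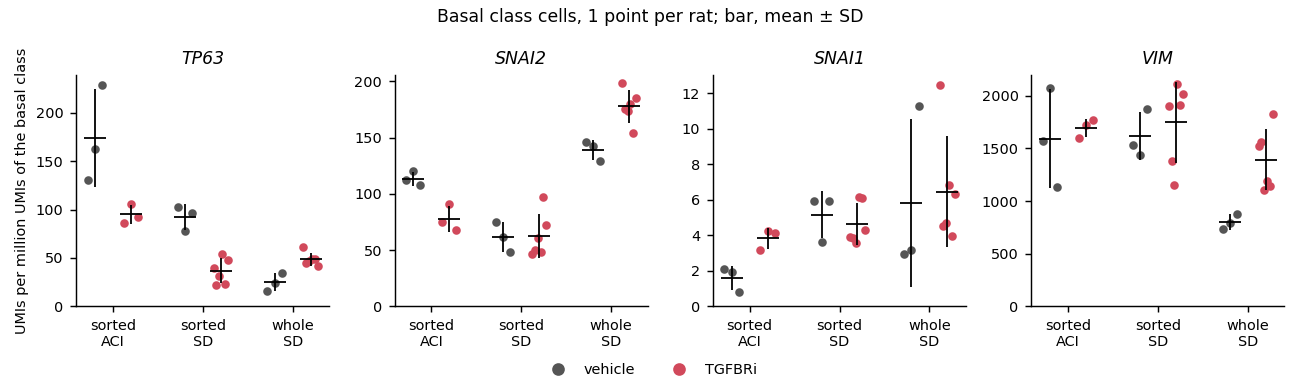
TP63, SNAI2, SNAI1 and VIM in basal-like cells of each rat, as CPM, for sorted ACI, sorted SD and whole SD glands, vehicle beside TGFBRi, with the mean and bars of 1 SD. TP63 is lower with TGFBRi in both sorted experiments and higher in whole glands, where the treated rats lie between 41.4 and 60.8.

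The gene lists of basal-like cells held calls in both directions, beside shares of all genes called of 34.2% in ACI sorts, 29.7% in SD sorts and 43.3% in whole glands. In ACI sorts 2 of 16 p63-linked genes rose and 7 fell, 8 of 19 epithelial-state genes rose and 2 fell, and 4 of 22 mesenchymal genes and other EMT factors rose and 2 fell, with medians of -0.14, 0.46 and 0.07 against -0.03 over all genes. CLDN4, a tight junction claudin, rose by 2.17 (SE 0.33, adjusted p = 0.00104, edgeR), while FGFR2, a growth factor receptor, changed by -0.37. In SD sorts the counts were 4 up and 5 down of 16, 9 up and 1 down of 19, and 3 up and 2 down of 23, with RAB25, an epithelial trafficking GTPase, up by 1.2 and DST, a hemidesmosome linker, at -1.61. In whole glands they were 5 up and 5 down of 16, 2 up and 8 down of 19, and 3 up and 3 down of 24, with OCLN at -1.3 and MMP2 up by 1.17. The epithelial-state median was 1.06 in SD sorts and -0.53 in whole glands, and the difference between these lists' directions was not tested.

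Among stromal classes of whole glands TWIST2 was called lower in fibroblast-like, pericyte-like and smooth muscle-like cells, and TWIST1 in smooth muscle-like cells. In fibroblast-like cells, where 29.8% of genes were called, TWIST2 fell from 77.1, 107.4 and 39.6 CPM in vehicle to 31.2, 45.4 and 55.7 as lowest, median and highest with TGFBRi (-0.90, SE 0.21, adjusted p = 0.0113, edgeR), with overlap through vehicle replicate 3, without which it fell by 1.18 (adjusted p = 0.000655). Fibroblast-like cells of both treatments lay in the same main clusters, with 39% of vehicle and 47.1% of TGFBRi cells in cluster 7, 29.8% and 24.6% in cluster 13 and 25.6% and 23% in cluster 14. TWIST2 had 1568 UMIs in 1703 vehicle cells and 1233 in 2570 TGFBRi cells (54.7 CPM) of cluster 7. It was at 35.1 and 35.6 in cluster 13 and at 44.4 and 43.3 in cluster 14. SNAI2 rose there from 3.50, 5.09 and 5.27 to 7.31, 10.4 and 12.1, without overlap (0.86, SE 0.22, adjusted p = 0.0182; 1.06 without vehicle replicate 3). ZEB1 rose by 0.45 (SE 0.18, adjusted p = 0.0907), a call lost without vehicle replicate 1 or 3 or TGFBRi replicate 1, 3, 4 or 5 (0.26 to 0.46, adjusted p of 0.119 to 0.286). TWIST1 was called higher in fibroblast-like cells only when vehicle replicate 3 was left out (0.60, adjusted p = 0.00908) or when scaled by library totals (0.51, adjusted p = 0.039).

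Pericyte-like cells, with 29.1% of genes called, showed 5 calls. TWIST2 fell from 26.8, 28.4 and 14.7 to between 8.88 and 17.5 (-1.03, SE 0.26, adjusted p = 0.0107, edgeR), and VIM rose from 2148, 1992 and 3077 to between 3962 and 4981 (0.62, SE 0.14, adjusted p = 0.00598). VIM did not overlap between the groups. ZEB2 rose from 154, 136 and 169 to between 210 and 266, without overlap (0.38, SE 0.13, adjusted p = 0.0494), a call lost without vehicle replicate 1 (0.39, adjusted p = 0.106) or 2 (0.34, adjusted p = 0.164). SNAI1 (0.62, SE 0.24, adjusted p = 0.0792) and ZEB1 (0.54, adjusted p = 0.0796) were also called higher. The SNAI1 call was lost without vehicle replicate 1 or 2 or TGFBRi replicate 1, 4 or 6 (0.42 to 0.64, adjusted p of 0.11 to 0.292), and the ZEB1 call without vehicle replicate 1 or 2 or TGFBRi replicate 2, 3, 5 or 6 (0.51 to 0.57, adjusted p of 0.102 to 0.167). Without vehicle replicate 3 the SNAI1 difference was 1.00 (adjusted p = 0.00386).

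In smooth muscle-like cells, with 13.8% of genes called, TWIST1 fell from 358, 168 and 102.8 to between 64.3 and 118, overlapping through vehicle replicate 3 (-1.36, SE 0.28, adjusted p = 0.00832, edgeR). With finer clusters that class gave -0.44 (adjusted p = 0.167). Of the 2 clusters in the class, cluster 44, with 88 cells of which 67% came from 1 library, held 404 TWIST1 UMIs (530.5 CPM) and 16 TWIST2 UMIs, and cluster 21, with 1261 cells, held 512 (90.03 CPM) and 7. Cluster 44 held 10.5% of vehicle and 0.901% of TGFBRi cells of the class, and in cluster 21 alone TWIST1 was at 100 CPM in vehicle and 79 in TGFBRi cells. TWIST2 there had 22 UMIs in 3 vehicle rats and 1 in 6 TGFBRi rats (adjusted p = 0.039), a call lost without vehicle replicate 1 (adjusted p = 0.126), and ZEB1 was called higher (0.64, adjusted p = 0.0869), but not without any 1 vehicle rat or TGFBRi replicate 3, 4, 5 or 6 (0.49 to 0.70, adjusted p of 0.12 to 0.216). VIM rose in neutrophil-like cells (0.72, SE 0.13, adjusted p = 0.0064, 1828 to 2025 in vehicle and 2871 to 3879 with TGFBRi; 8.17% of genes called) and in vascular endothelium-like cells (0.43, SE 0.14, adjusted p = 0.0419, 3905 to 4010 and 4441 to 7690; 32.3% called), the latter lost without vehicle replicate 2 (0.42, adjusted p = 0.113). ZEB2 fell in mast-like cells, from between 90.98 and 221 to between 31.9 and 72.3 (-1.50, SE 0.34, adjusted p = 0.0299; 1.47% called), a call lost without vehicle replicate 1 (-1.37, adjusted p = 0.223).

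Vehicle replicate 3 decided several calls in vascular endothelium-like cells. Without it SNAI1 (1.26, adjusted p = 0.000315), SNAI2 (1.23, adjusted p = 0.0237) and ZEB1 (-0.65, adjusted p = 0.000461) were called there, and with all rats none of these was (edgeR). SNAI2 in T or NK-like cells was called lower on 12 UMIs in vehicle and 7 in TGFBRi rats (adjusted p = 0.072; 8.69% called), but not without any 1 vehicle rat or TGFBRi replicate 1, 3 or 6 (adjusted p of 0.101 to 0.155). TWIST1 in mature luminal-like cells of SD sorts was called lower (-1.34, SE 0.45, adjusted p = 0.0556; 31.1% called), and not without vehicle replicate 3 of that experiment (-0.57, adjusted p = 0.463).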

How the data were processed

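Bulk RNA-seq libraries were made from sorted rat mammary cells, and 10x Genomics libraries from sorted cells or from unsorted whole glands. Per the authors' methods, bulk reads were aligned with STAR 2.5.1b to rn6 and counted without strand by HTSeq on refGene, and genes with at least 10 counts were kept. The deposited bulk values, recorded as signal, are these read counts divided by the DESeq2 1.30.1 size factors of the authors. Recomputed size factors gave the same scaling, with ratios that spread by at most 0.000779, except in EPCAM+ tumor samples. There the spread was 0.087, so their exact scaling is not established. All 2526550 values above 0 came out as whole reads (tolerance 0.001), and rows naming no gene (23.1% to 42.5% of reads, in 85 samples) were left out. Without strand, reads of a gene and of an antisense partner cannot be told apart. The deposited single-cell tables hold raw UMI counts of single cells. For them the authors ran Cell Ranger 4.0.0 (sorts, 3′) or 7.0.0 (whole glands, 5′) and filtered in Seurat, and no mitochondrial genes remain. Every cell passed the authors' stated limits on genes, and those of the sorts also the limits on keratin and PTPRC reads, which the authors did not apply to whole glands. In the sorts the authors also removed cells lying in clusters made up almost wholly of the other sort.

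Bulk values were tested with limma 3.58.1 on log2(value + 1) with a trended prior and robust variances, for genes summing to at least 10, at a Benjamini-Hochberg adjusted p of at most 0.05, with all groups of a sort in 1 model. UMIs were summed per rat and tested with edgeR 4.0.16 (quasi-likelihood, TMM) for genes with at least 10 UMIs, at an adjusted p of at most 0.1, over rats with at least 10 cells of a class. Every adjusted p in the text is from one of these fits or from DESeq2 1.42.0 where named. Alternatives were other pseudocounts and filters, edgeR and DESeq2 on whole reads, library totals, fits of only the groups compared, other clusters, cells left out and each rat left out. Cells were clustered with leidenalg 0.10.2 (Leiden, resolution 0.8) on a graph of shared nearest neighbors made without the 8 genes. Clusters were named from fixed marker lists resting on at least 3 detected markers. A cluster whose leading genes went against its name stayed unnamed.

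Basal and luminal sorts of 1 rat share the rat by label. Their deviations from group means correlated at -0.0248 to 0.79 in ACI, 0.0679 to 0.215 in SD and -0.0133 to 0.317 in NMU-treated rats. The 8 genes, the 3 lists (17, 19 and 25 genes) and the tests were chosen with earlier results of these data known. Genes named are the 8, the 3 genes nearest to each in pattern, and per list at most 3 with the lowest adjusted p. On simulated data for young ACI basal cells at day 0, limma recovered 1% of genes changed by 1 and 94% of genes changed by 4 on the log2 scale, with 3 false calls. For ACI basal-like cells edgeR recovered 96% and 100%, with 21 false calls. In the labels, 1 ACI rat at day 7 is described as treated and as control, and was kept as vehicle. For day 7 TGFBRi replicate 3 the title of the CD45+ sample gives another day than its other labels, and it was kept at day 7. 4 samples of 1 E2 rat were averaged.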

Additional observations from a re-analysis of the deposited data

Results flagged for a closer look

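The TGFBRi effect on TP63 differed between whole-gland and sorted SD basal-like cells by 1.96 on the log2 scale, tested as a difference in 1 model (edgeR). The other values here are samples far from the rest of their group, found in 28 of 261 groups of 4 to 10 samples, where chance marks about 1 in 20 if values are normally distributed. The rate for counts such as these was not measured. They are given as values, and their cause was not tested.

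Adult virgin vehicle rat 1 gave many of them: in basal cells TWIST2 at 195.5, ZEB1 at 1041 and ZEB2 at 1120 normalized counts, and in luminal cells SNAI1 at 740.3, SNAI2 at 115.8, ZEB1 at 380.4, ZEB2 at 225.9 and VIM at 7101, and in CD45+ cells TWIST1 at 581.6, each the highest of its 4 rats. Other highest samples of adult ACI groups were TP63 at 40.92 in parous and 35.05 in virgin TGFBRi luminal cells, SNAI2 at 76.79 in parous TGFBRi CD45+ cells, ZEB1 at 983.6 in parous TGFBRi basal cells and VIM at 980.3 in virgin TGFBRi luminal cells. In young SD vehicle rats the highest samples were TP63 at 24.92, SNAI2 at 36.46, TWIST2 at 203.3 and ZEB1 at 2286 in CD45+ cells and TP63 at 20.88 and SNAI2 at 38.81 in luminal cells, and the lowest was TWIST1 at 14.79 in TGFBRi luminal cells. In the E2 experiment SNAI1 stood at 329.3 in CD45+ cells of 1 TGFBRi tumor-free rat, the mean of its 4 samples, and at 987.4 in 1 vehicle luminal sample without E2.

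Among single-cell classes with TGFBRi, whole glands gave SNAI1 at 12.48 CPM in basal-like cells and ZEB2 at 6.751 in T or NK-like cells as highest values, and ZEB1 at 53.84 in B-like and ZEB2 at 87.95 in fibroblast-like cells as lowest values. VIM reached 8797 in fibroblast-like cells of 1 SD sort.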

How the results depend on the processing

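Of 37 bulk calls of the 8 genes, leaving out each rat in turn gave 242 values, 216 with the same call, 26 no longer past the threshold and 0 reversed, and the other settings 292 values (280, 12 and 0). Of 44 single-cell calls, leaving out each rat gave 325 values (277, 48 and 0) and the other settings 210 (197, 13 and 0). The 4 bulk TGFBRi calls became 2 with edgeR and 11 with DESeq2 on whole reads. The 0 calls of a difference between days became 2 with DESeq2. The cause was not tested, and the share of all genes called by edgeR or DESeq2 is not given. Without 1 rat the counts of calls ranged from 3 to 6 for bulk TGFBRi, 32 to 34 for bulk lineage, 0 to 1 for the difference between days (the 1 being TWIST2 without CD45 day 0 vehicle replicate 1), 21 to 27 by class, 4 to 8 by sort (8 without ACI basal vehicle replicate 1) and 13 to 16 for single-cell lineage. With the rat as a replicate block 34 bulk and 15 single-cell lineage tests were called and 0 differences between basal and luminal effects. The block changed the calls of ZEB2 at days 7 and 14 and of SNAI1 in SD rats and no other. In basal-like cells of the SD basal sort ZEB1, ZEB2 and TWIST2 rested on 17, 45 and 46 UMIs, which limits what these single cells can show for them.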

Other observations

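In basal cells of young ACI rats at days 7 and 14, 1 rat of each group of 3, as labelled by treatment, combined the lowest TP63 with the highest SNAI2. TP63 and SNAI2 were at 799.6 and 3871 normalized counts in day 7 vehicle replicate 3, at 747.8 and 3277 in day 7 TGFBRi replicate 1, at 577.7 and 3841 in day 14 vehicle replicate 1 and at 840.6 and 5062 in day 14 TGFBRi replicate 3. The other 8 rats lay between 2051 and 2820 for TP63 and between 1266 and 2112 for SNAI2. As RPM the 4 rats had TP63 between 22.9 and 46.3 and SNAI2 between 152 and 203, and the other 8 had TP63 between 123 and 206 and SNAI2 between 78.4 and 139, so the gap in SNAI2 was smaller on that scale. Day 7 vehicle replicate 3 is the rat whose basal and luminal descriptions call it treated, so its group is uncertain. The deviations of basal and luminal sorts from group means correlated at 0.79 in day 7 vehicle replicate 3. The correlation was 0.759 in day 7 TGFBRi replicate 1 and 0.754 in day 14 TGFBRi replicate 3. It was 0.0712 in day 14 vehicle replicate 1 and at most 0.596 in the other young ACI rats. The 4 rats named here were noticed by their values, and no test was made.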
